A study of Mus musculus with 9 samples.

Results

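The 10 mucin, trefoil and gastric-type secretory genes Muc1, Muc4, Muc5ac, Muc6, Muc13, Muc20, Tff1, Tff2, Agr2 and Gkn1 were chosen by symbol from the 47643 genes in the files. All 10 had counts, and 9 of them were among the 14105 genes that reached 100 counts when the 9 libraries were added up. Muc20, with 46 counts, was below this filter and was not tested. The RNA came from FACS-sorted pancreatic ductal adenocarcinoma (PDAC) cells of mouse tumors. GFP+Yap+ cells of KPF mice gave 6 libraries, and Tm+Yap- cells of relapse nodules in KPYYF mice gave 3. The alleles of KPF mice include Trp53 frt/+, Pdx-Flp and R26 FSF-CreER/Dual, and KPYYF mice carry the alleles of KPF mice plus Yap flox/flox. All mice were on a tamoxifen diet after their tumors had formed, so both groups share the Trp53 allele and the diet. Its duration for each library is not given, and the paper reports the relapse nodules after prolonged treatment. Cre recombination removes GFP and turns on Tm, so the sorted GFP+ cells had kept the unrecombined reporter, unlike the Tm+ cells. Flp was driven by Pdx and therefore acts in the pancreatic lineage, the strain background and the age at collection of each library are not given in the labels, and genotype, Yap status and reporter color changed together between the groups.

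Mucins are large, heavily O-glycosylated proteins of epithelial surfaces. Muc1, Muc4, Muc13 and Muc20 stay anchored in the apical membrane, whereas Muc5ac and Muc6 are secreted and build gels. In the normal stomach, Muc5ac and Tff1 mark surface mucous cells, and Muc6 and Tff2 mark gland mucous cells. The normal pancreatic duct makes little Muc5ac, which is known from precursor lesions and well differentiated pancreatic tumors.

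The fitted level of each of the 9 tested genes was lower in KPYYF than in KPF libraries. The median of their log2 fold changes was -2.67, compared with -0.07 over all genes tested, of which 53.3% were below 0. The filter sums counts over 6 KPF and 3 KPYYF libraries, so a gene found mainly in KPF libraries can reach it through them alone. The direction of such a gene depends in part on the filter. This holds for Muc4 and for Muc5ac, which had 1080 counts in KPF and 3 in KPYYF libraries. Muc1 alone passed the adjustment over all genes (quasi-likelihood test of edgeR, Benjamini-Hochberg), where 0.794% of all genes were called lower. Muc1, Muc5ac, Muc6, Tff1, Agr2 and Gkn1, 6 of the 9, had an unadjusted p under 0.05 and were lower, against 10% of all genes. With 1 library removed, Muc1 and Muc5ac had an unadjusted p under 0.05 in all 9 fits, but Tff1 not without 4891, Muc6 not without 4449 or 4891, Agr2 not without 4891 or 4938, and Gkn1 not without 4435, 4449, 4891 or 4938. None was higher by either threshold, compared with 0.305% and 6.1% of all genes. The DESeq2 Wald test called 5 of the 9 lower, Muc1, Muc5ac, Muc6, Tff1 and Gkn1, against 6.58% of all genes. Muc1 was also the only one of the 10 in which every KPYYF library lay below every KPF library, a pattern found in 5.18% of all genes tested. The p-values measure the spread between libraries, and KPF libraries 4504h and 4504s share a mouse number.

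Values are counts scaled to equal library size (CPM) after TMM normalization, which corrects for differences in library composition. Between 8116539 and 9635514 reads per library were counted on genes, and a count of 0 allows up to 3 counts, or 0.291 to 0.436 CPM. The kit labels give no molecular identifiers, and several reads may stem from 1 molecule, so such limits and counting intervals cover counting error only. Levels of different genes were not compared with each other, and each gene or sum over a marker list was compared only between libraries. In sorted bulk cells, fewer cells of a type and less RNA per cell cannot be told apart.

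Yap1 (ENSMUSG00000053110), the targeted gene, checked the labels. It was at 41.7 to 150.5 CPM in the KPF libraries and at 0.711, 2.84 and 7.10 CPM in KPYYF libraries 4449, 4891 and 4938, and fell by 4.79 on the log2 scale (standard error, SE, 0.72, adjusted p = 0.0159). The groups did not overlap, and among fits with 1 library removed the adjusted p was above 0.05 only without KPYYF library 4891 (0.0553).

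Muc1 (ENSMUSG00000042784) lies on chromosome 3 from 89229057 to 89233381 on the plus strand of GRCm38, and its product is the transmembrane mucin of the apical surface of most glandular epithelia. It stood at 184, 339, 40.0, 236, 708 and 267 CPM in KPF libraries 4269, 4435, 4504h, 4504s, 4515 and 4601. In KPYYF libraries 4449, 4891 and 4938 it stood at 9.0, 18.9 and 23.4 CPM. The lowest KPF library, 4504h, was still above the highest KPYYF library. Muc1 fell by 4.11 on the log2 scale (SE 0.82, adjusted p = 0.0422), and the exact two-sided permutation test of mean log2 CPM gave p = 0.0119, the smallest that 84 splits of 9 libraries into 6 and 3 allow. When 1 library at a time was removed, the log2 fold change stayed between -4.40 and -3.60, but the adjusted p was under 0.05 in only 2 of the 9 fits, those without 4504h (0.0108) and without 4515 (0.0494). In the other fits it lay between 0.0576 and 0.139, the latter without KPYYF library 4891. The permutation test counted 4504h and 4504s as separate libraries although they share a mouse number. In the edgeR fit with these 2 summed, the log2 fold change of Muc1 was -4.25 (adjusted p = 0.0198). Over all alternatives the adjusted p of Muc1 ran from 8.12e-09 to 0.173.

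**Figure D1:**
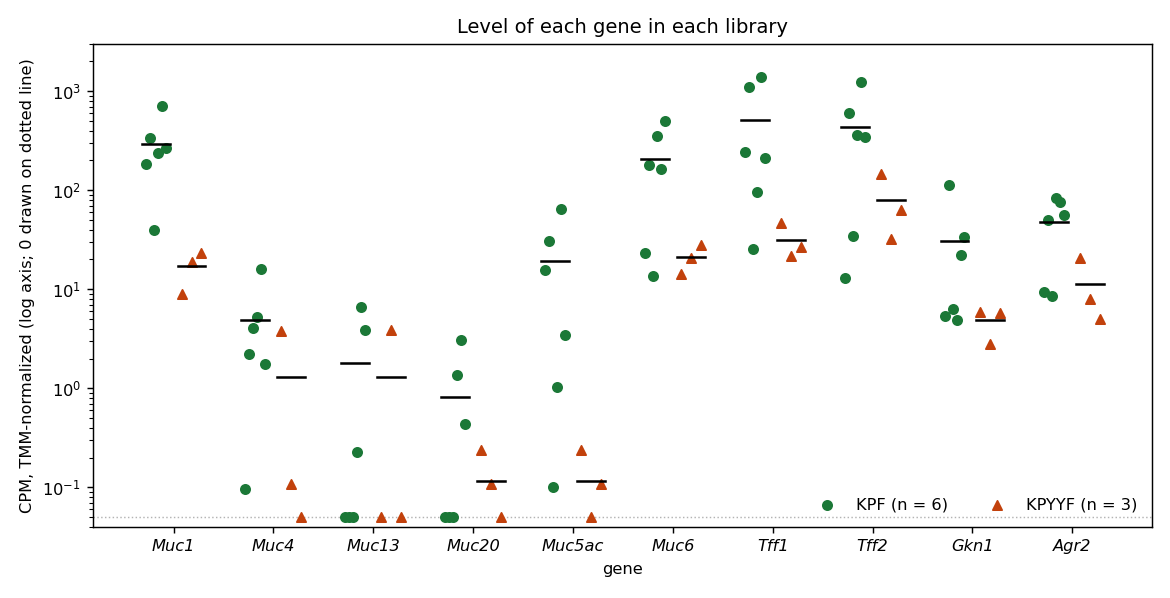
CPM on a log axis of each of the 10 genes in each library, with KPF libraries as circles (n = 6), KPYYF libraries as triangles (n = 3), group means as bars and libraries without a count on the dotted line. Muc1 is the gene without overlap between the groups, with 9.0 to 23.4 CPM in KPYYF and 40.0 to 708 CPM in KPF libraries.

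The remaining membrane mucins had few counts, with 300 for Muc4, 125 for Muc13 and 46 for Muc20 over the 9 libraries. Muc4 (ENSMUSG00000079620), a membrane mucin that binds ErbB2, was at 0.0970 to 16.1 CPM in KPF libraries with a median of 3.16 CPM, and at 3.79, 0.109 and 0 CPM in KPYYF libraries 4449, 4891 and 4938. The groups overlapped, and its log2 fold change of -1.91 (SE 1.71, adjusted p = 0.644) did not pass. The size depended on single libraries, with -6.18 without KPYYF library 4449 (adjusted p = 0.196), -1.05 without KPF library 4515 (adjusted p = 0.860) and -6.16 without both 4504s and 4449 (adjusted p = 0.274). Muc13 (ENSMUSG00000022824), a mucin of the gastrointestinal surface, had no count in KPF libraries 4269, 4435 and 4504h, 0.227 CPM in 4504s, 6.62 CPM in 4515 and 3.93 CPM in 4601. Among KPYYF libraries only 4891 had Muc13 counts, at 3.93 CPM. The fitted change of Muc13 was -0.45 (log2, SE 2.25, adjusted p = 0.955), and the sign turned without KPYYF library 4449 (0.13) or 4938 (0.13). Muc20 (ENSMUSG00000035638) had 0 to 3.09 CPM in KPF and 0 to 0.237 CPM in KPYYF libraries, which is near the limit of detection. Muc4 and Muc20 lie on opposite strands of chromosome 16 and overlap by 4973 bases, and since the strand setting of the counting is not given, reads in the shared stretch cannot be told apart. The same holds for Muc13 and an antisense gene, Gm15657, with 8 counts.

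Muc5ac and Muc6 are the gel-forming mucins of the set. Muc5ac (ENSMUSG00000037974), the mucin of gastric surface cells, occupies chromosome 7 from 141788972 to 141819231. Its levels were 15.7, 31.0, 0.102, 1.02, 64.1 and 3.49 CPM in KPF libraries 4269, 4435, 4504h, 4504s, 4515 and 4601, and 0.237, 0 and 0.109 CPM in KPYYF libraries 4449, 4891 and 4938. KPF library 4504h, with 1 count, fell within the KPYYF range, and the other 5 KPF libraries lay above it. The KPYYF libraries held 3 counts in all against 1080 in KPF libraries, a ratio of 176 per equal effective depth (95% exact counting interval 60.2 to 856). Differences between libraries are wider than counting error, and the log2 fold change of -7.24 (SE 2.09, adjusted p = 0.123) did not pass the adjustment (exact permutation test, p = 0.0595).

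Muc6 (ENSMUSG00000048191), the mucin of gastric glands, belongs to the same mucin cluster as Muc5ac, on chromosome 7 from 141633456 to 141655319 on the minus strand. KPF libraries 4269, 4435, 4504h, 4504s, 4515 and 4601 had 23.2, 182, 13.7, 351, 164 and 501 CPM of Muc6, and KPYYF libraries 4449, 4891 and 4938 had 14.2, 20.7 and 28.3 CPM. KPF libraries 4269 and 4504h were within or below the KPYYF range, and the other 4 were above it. The log2 fold change of Muc6 was -3.29 (SE 1.12, adjusted p = 0.188; exact permutation test, p = 0.131). Although both genes were lowest in 4504h, Muc5ac was highest in 4515 and Muc6 in 4601.

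The trefoil factors are small secreted peptides that bind mucins and protect mucosa. Tff1 (ENSMUSG00000024032), the partner of Muc5ac in gastric surface cells, had 243, 1092, 25.7, 96.1, 1392 and 214 CPM in KPF libraries 4269, 4435, 4504h, 4504s, 4515 and 4601. In KPYYF libraries 4449, 4891 and 4938 it had 46.4, 21.5 and 26.9 CPM. Only KPF library 4504h lay within the KPYYF range, and the log2 fold change was -4.01 (SE 1.31, adjusted p = 0.174; exact permutation test, p = 0.0714). The 6 KPF libraries were in the same order for Tff1 as for Muc5ac, from 4515, 4435, 4269, 4601 and 4504s down to 4504h. An antisense gene, Gm15318, overlaps Tff1 by 1660 bases and had 69 counts, against 29210 counts of Tff1.

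Tff2 (ENSMUSG00000024028), the trefoil factor of gastric glands, lies next to Tff1 on chromosome 17. It had 13.0, 605, 34.4, 359, 1243 and 343 CPM in KPF libraries 4269, 4435, 4504h, 4504s, 4515 and 4601. KPYYF library 4449 had 146 CPM, 4891 had 32.1 CPM and 4938 had 63.1 CPM. KPF library 4269 was below all KPYYF libraries and 4504h was within their range. The fitted log2 fold change of -2.43 (SE 1.32, adjusted p = 0.416; exact permutation test, p = 0.357) did not pass. In 4269, Tff2 was at its lowest of the 6 KPF libraries, whereas Tff1 was in the middle of its KPF order.

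Gkn1 (ENSMUSG00000030050), a gastrokine secreted by gastric surface cells, had 5.34, 113, 6.32, 4.88, 22.3 and 33.6 CPM in KPF libraries 4269, 4435, 4504h, 4504s, 4515 and 4601. It had 5.92, 2.84 and 5.79 CPM in KPYYF libraries 4449, 4891 and 4938. Libraries 4435, 4515, 4601 and 4504h were above the KPYYF range, 4504h by less than 1 CPM. The log2 fold change of -2.67 (SE 1.09, adjusted p = 0.25) was -1.57 without 4435, the library with the highest level, and -2.84, -2.40 and -2.82 without KPYYF libraries 4449, 4891 and 4938, and in none of these 4 fits was the unadjusted p under 0.05. Agr2 (ENSMUSG00000020581), an endoplasmic reticulum protein disulfide isomerase that helps mucins fold, had 9.31, 50.3, 8.56, 83.5, 76.6 and 56.1 CPM in the KPF libraries in the same sequence. KPYYF libraries 4449, 4891 and 4938 had 20.7, 7.96 and 5.03 CPM of Agr2. The log2 fold change of Agr2 was -2.08 (SE 0.81, adjusted p = 0.227), and KPF libraries 4269 and 4504h were below KPYYF library 4449.

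The 300 bases around the transcription start (250 before and 50 after) are shown for 4 genes with an unadjusted p under 0.05 that have a window in the RefSeq promoter table, build GRCm38.p6, so that the upstream sequence can be read beside the changes. Capitals mark matches to the TEAD motif GGAATG, named for the DNA partners of Yap, to the GATA factor motif AGATAA, to the box motif TATAAA near many transcription starts, to the FOXA core motif TGTTTAC, to its variant form TGTTTGC and to the STAT motif TTCNNNGAA, searched on both strands, and windows are written 5' to 3' on the strand of the gene. Windows were present for 7 of the 10 genes, and none was in the table for Muc5ac, Tff1 and Tff2.
Muc1, chr3:89228806-89229105, plus strand: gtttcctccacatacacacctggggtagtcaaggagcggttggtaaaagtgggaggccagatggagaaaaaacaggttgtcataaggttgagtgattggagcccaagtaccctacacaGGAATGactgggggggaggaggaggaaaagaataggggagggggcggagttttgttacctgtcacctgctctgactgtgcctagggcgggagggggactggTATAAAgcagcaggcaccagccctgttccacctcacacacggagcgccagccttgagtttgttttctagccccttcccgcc
Muc6, chr7:141655344-141655643, minus strand: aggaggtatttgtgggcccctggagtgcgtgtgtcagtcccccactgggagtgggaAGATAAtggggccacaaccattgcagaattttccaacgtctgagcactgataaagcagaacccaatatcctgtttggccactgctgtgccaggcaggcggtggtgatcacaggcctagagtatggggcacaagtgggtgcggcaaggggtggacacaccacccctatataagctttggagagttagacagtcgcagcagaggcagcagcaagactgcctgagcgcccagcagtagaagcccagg
Agr2, chr12:35992675-35992974, plus strand: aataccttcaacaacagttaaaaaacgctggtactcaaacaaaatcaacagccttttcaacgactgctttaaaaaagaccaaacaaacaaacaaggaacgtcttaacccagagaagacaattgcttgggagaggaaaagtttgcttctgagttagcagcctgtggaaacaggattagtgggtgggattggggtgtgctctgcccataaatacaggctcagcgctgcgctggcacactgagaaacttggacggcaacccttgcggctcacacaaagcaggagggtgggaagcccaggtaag
Gkn1, chr6:87350866-87351165, minus strand: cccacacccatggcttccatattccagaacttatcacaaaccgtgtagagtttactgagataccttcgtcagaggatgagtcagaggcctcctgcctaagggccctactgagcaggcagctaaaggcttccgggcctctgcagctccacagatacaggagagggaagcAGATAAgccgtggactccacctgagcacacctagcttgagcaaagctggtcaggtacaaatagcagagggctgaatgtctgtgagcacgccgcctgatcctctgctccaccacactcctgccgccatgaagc
Counted from the transcription start as 0, the Muc1 window held GGAATG from position -132 and TATAAA from -31, the Muc6 window AGATAA from -194 and the Gkn1 window AGATAA from -82. The Agr2 window held none of these letters. Of 32851 windows of this length, 14.7% held the TEAD motif, 11.2% the GATA motif, 13.6% the TATA box, 8.48% a FOXA core and 8.3% the STAT motif. A match describes the letters only and no binding was measured here.

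The genes also varied between KPF libraries. KPF library 4515 was the highest of the 6 in 7 of the 10 genes, and 4504h was the lowest, or shared a count of 0, in 7. Counting levels at or below the highest KPYYF library, 4269 and 4504h reached 7 of the 10 genes each, 4435 reached 3, 4504s and 4601 reached 2 each, and 4515 reached none. By this count 4269 and 4504h lay closest to the KPYYF libraries, but single high KPYYF libraries also made overlap. Agr2 overlapped through 4449 alone, at 20.7 CPM. Its levels in 4891 and 4938, 7.96 and 5.03 CPM, were below the lowest KPF library, at 8.56 CPM. The highest KPYYF library was 4449 for Muc4 and 4891 for Muc13. Libraries 4504h and 4504s, which bear the same mouse number, differed by 25.7-fold in Muc6, 10.4-fold in Tff2, 9.75-fold in Agr2 and 5.91-fold in Muc1, each higher in 4504s. Gkn1 went the other way, with 4504s at 0.773 of 4504h, and Muc4 was 1.28-fold higher in 4504s. The summed CPM of 10 acinar markers was 20231 in 4504s, 6067 in KPYYF library 4449 and 68.7 to 1002 in the other libraries. Their part in these differences was not tested. Without 4504s and 4449, left out after the data were seen, Muc1 had a log2 fold change of -3.86 (adjusted p = 0.120) and Muc6 of -2.85 (adjusted p = 0.381).

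**Figure D2:**
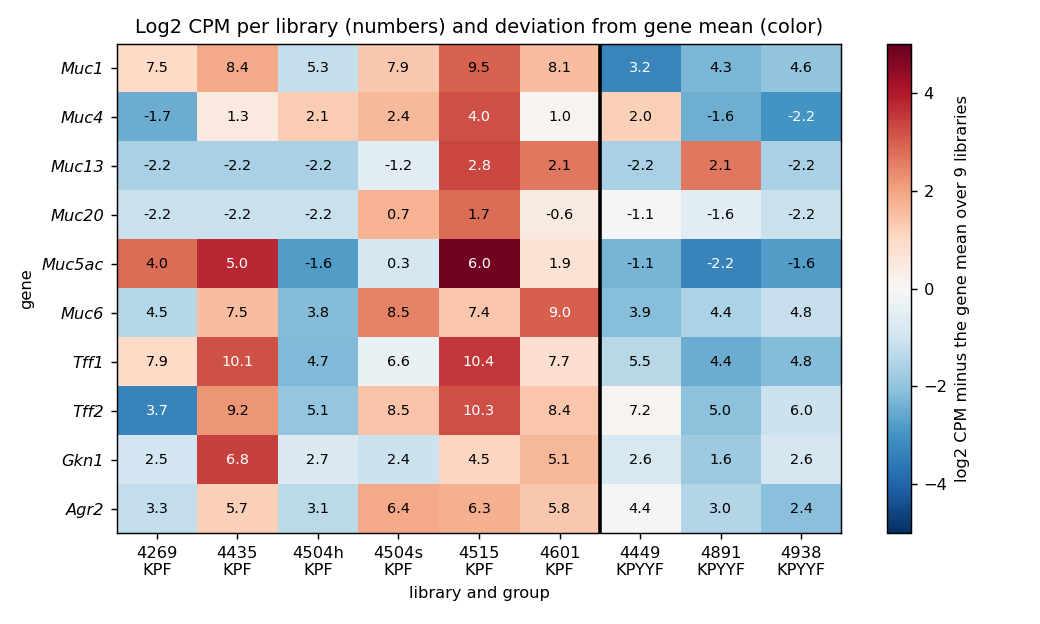
Log2 CPM of each gene (rows) in each library (columns), printed in the cells, with color for the deviation from the mean of the gene over 9 libraries and a line between KPF and KPYYF libraries. KPF library 4515 is the highest KPF library for 7 of the 10 genes, and KPF libraries 4269 and 4504h are at or below the highest KPYYF library for 7 each.

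Genes with the most similar profile over the 9 libraries were found by the mean absolute difference of centered log2 CPM among 8867 genes. Muc5ac and Tff1 were both nearest to Mucl3, a mucin-like gene, with differences of 0.77 and 0.71, and Tff1 was among the 3 nearest of Muc5ac (0.82). Muc6 was near Fcna (0.58), the gastrokine gene Gkn3 (0.59) and Sfn (0.60), and Tff2 near Ly6d (0.52), Kcnk1 (0.61) and Gabrp (0.65). Agr2 had the closest neighbors, the epithelial genes Cldn7 (0.31) and Epcam (0.38), followed by Kcnk1 (0.41). Muc1 was nearest to Mbp (0.57), Tjp3 (0.59) and Adap1 (0.59), and Gkn1 to Abcc4 (0.68) and N4bp1 (0.71). For Tff1 the others were Lmo7 (0.72) and Gjb1 (0.76), and for Muc5ac Atp6v0a4 (0.81). Muc4 was near Syt8 (0.64), Lgi2 (0.68) and Paqr5 (0.73), and Muc13 had no neighbor below 1.16, with Gpnmb, Ramp3 and Ehbp1 at 1.16 to 1.20.

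Further genes were described from chosen lists, and whether they share a program with the members was not tested. All 5 tested genes among 13 other mucin and trefoil genes were lower, against 53.3% of all genes tested, at a median of -2.31, but none passed the adjustment. The direction and the median depend in part on the filter here too, as all 5, Mucl3 included, reached it mainly through KPF libraries. Muc2 had 143 and Muc3a 297 counts in all. Mucl3 had the largest fall, with 2.85 to 185 CPM in KPF and 0.328 to 1.42 CPM in KPYYF libraries and no overlap (log2 fold change -6.01, adjusted p = 0.109), and Tff3 the smallest (-1.80, adjusted p = 0.717). Muc2, Muc3 and Muc3a were the other tested genes, Muc5b and Muc16 were below the filter, 4 had no count and Muc17 and Muc21 were not matched. Muc2 was found mainly in KPF library 4515, at 14.2 CPM against at most 1.09 CPM in any other library.

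Of 12 tested gastric-type genes, 11 were lower, against 53.3% of all genes tested, with a median of -3.52. Ctse, an aspartic protease of gastric surface cells, was lower, at 63.9 to 740 CPM in KPF and 8.96 to 33.0 CPM in KPYYF libraries, without overlap (log2 fold change -4.23, SE 0.80, adjusted p = 0.0357). It no longer passed without 4269, 4435, 4504s, 4891 or 4938, at adjusted p of 0.0576 to 0.136. Gkn3, in the same cluster as Gkn1, was at 43.0 to 1058 CPM in KPF and 20.5 to 37.1 CPM in KPYYF libraries, also without overlap, but with an adjusted p of 0.120. Anxa10 and Vsig1 had no overlap either. Cym, with 157 counts in KPF and none in KPYYF libraries, was at least 25.6-fold lower by the limit of 3 counts over the KPYYF group, and the median was -3.52 also with Cym at this bound. Cym reached the filter through KPF libraries alone, and Pgc, Sult1c2 and Gkn2 reached it mainly through them. The direction of these genes depends in part on the filter. Cldn18 was the only gene with a higher fitted level (0.81, adjusted p = 0.896), at 2.84, 164 and 999 CPM in KPYYF libraries 4449, 4891 and 4938 and 2.45 to 1120 CPM in KPF libraries. Of 7 markers of parietal, chief and endocrine stomach cells, only 2 could be tested, Atp4b had no count, and their summed level was 0.408 to 129 CPM in KPF and 0.436 to 19.9 CPM in KPYYF libraries.

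Mucin O-glycans are built by GalNAc transferases and branching enzymes. Of 20 tested enzymes, 15 were lower, against 53.3% of all genes tested, and 5 higher, with a median of -0.52. Gcnt3, the mucin-type core 2 branching enzyme, was at 45.6 to 273 CPM in KPF and 6.00 to 14.0 CPM in KPYYF libraries, without overlap (log2 fold change -3.90, SE 0.66, adjusted p = 0.0229), but not without 4891 (adjusted p = 0.0746) or 4938 (adjusted p = 0.0885). Gcnt4, of the same family, had the opposite sign, with 1.31 to 14.8 CPM in KPF and 29.1 to 40.1 CPM in KPYYF libraries, also without overlap, but its adjusted p was 0.0817 (log2 fold change 2.48). B3gnt3 had the lowest log2 fold change, -4.18 (adjusted p = 0.203). The broadly expressed Galnt1 and C1galt1 stood at -0.56 and -0.34 on the log2 scale (adjusted p = 0.446 and 0.749).

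In the mucous secretory machinery, 15 of 16 tested genes were lower, against 53.3% of all genes tested, with a median of -1.59. The adjustment was passed by 3 lower genes, against 0.794% of all genes. These 3 were the exocytosis genes Stxbp2 (log2 fold change -2.26, adjusted p = 0.0239), Rab3d (-1.84, adjusted p = 0.0422) and Vamp8 (-1.92, adjusted p = 0.0418). Each was lower without overlap between groups, a pattern found in 5.18% of all genes tested. Stxbp2 passed in 6 of the 9 fits with 1 library removed, failing without 4435, 4891 or 4938 (adjusted p of 0.0518 to 0.0893). Rab3d and Vamp8 passed in 2 each, Rab3d without 4504h or 4601 and Vamp8 without 4504h or 4449, and reached adjusted p of 0.152 and 0.153 without 4938. Neither endoplasmic reticulum stress sensor passed, with Ern2, found in mucous cells, at -4.37 (adjusted p = 0.169) and the broadly expressed Ern1 at 0.38 (adjusted p = 0.802). The groups overlapped for both. Ern2 was at 0 to 2.08 CPM in KPYYF libraries and reached the filter mainly through KPF libraries. Of 19 tested regulators, 17 were lower, against 53.3% of all genes tested, with a median of -1.68 that was -3.49 without KPYYF library 4449. Foxa2 and Gata5 were lower (log2 fold changes -3.97 and -5.30, adjusted p = 0.0141 and 0.0357). Foxa2 was at 32.6 to 179 CPM in KPF and 4.26 to 6.99 CPM in KPYYF libraries. Gata5 was at 12.6 to 51.4 CPM in KPF and 0 to 1.85 CPM in KPYYF libraries, and reached the filter mainly through KPF libraries. With 1 library removed, Foxa2 failed without 4891 or 4938 (adjusted p of 0.0553 and 0.0604). Gata5 passed only without 4504h, 4601 or 4891, with adjusted p of up to 0.078 in the other such fits. In limma-voom with quality weights neither Foxa2 nor Gata5 passed (adjusted p = 0.0978 and 0.131). Sox2 had the largest fitted rise (4.62, adjusted p = 0.161), at 0.118 CPM in KPYYF library 4449 and at 41.0 and 112 CPM in 4891 and 4938. Spdef, a factor of goblet and mucous cells, had a log2 fold change of -2.91 (adjusted p = 0.325).

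**Figure D3:**
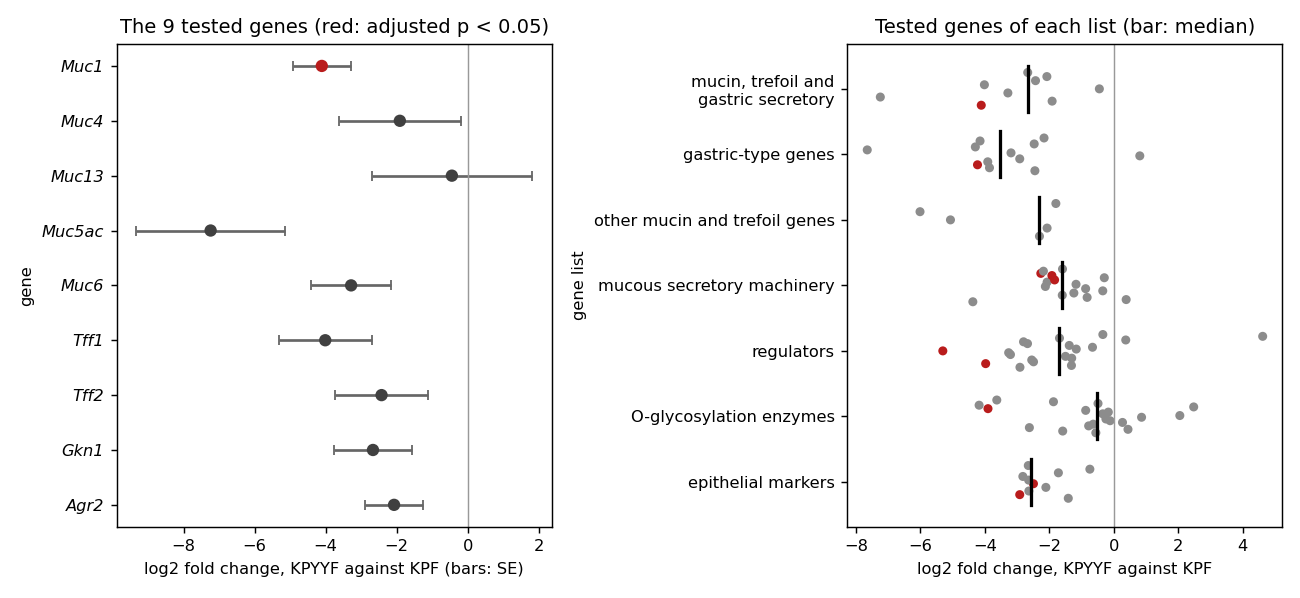
Left, log2 fold changes of the 9 tested genes in KPYYF against KPF libraries with standard errors (SE); right, each tested gene of the mucin, trefoil and gastric secretory set and of 6 further lists, with the median as a bar and genes with an adjusted p under 0.05 in red. The medians are -2.67 for the 9 genes and -0.52 for the O-glycosylation enzymes.

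Epithelial markers differed between the same groups. All 10 had a lower fitted level in KPYYF libraries, against 53.3% of all genes tested, at a median of -2.56 (log2). Cdh1 and Krt18 had an adjusted p under 0.05. With 1 library removed, this held in 4 fits for Cdh1 and in 7 for Krt18, and for neither gene without 4891 or 4938. Their summed level was 3232 to 11270 CPM in KPF and 574 to 1909 CPM in KPYYF libraries, without overlap, lowest among KPF libraries in 4504h and highest in 4515. Expressed relative to the mean log2 CPM of these markers in the same library, a comparison chosen after the data were seen, the difference between groups was -1.52 for Muc1 (exact permutation test, p = 0.0595), -1.97 for Muc5ac (exact permutation test, p = 0.25) and -0.74 for Tff1 (exact permutation test, p = 0.44). The relative difference was near 0 for Muc6, at -0.16, and above 0 for Agr2, Gkn1 and Tff2, at 0.44, 0.54 and 0.78. The 3 membrane mucins with few counts, Muc4, Muc20 and Muc13, were also above 0, at 0.13, 1.41 and 1.97. In libraries with 0 or few counts, log2 CPM is set mainly by the prior count of 2. The relative level there follows the epithelial markers and not the gene. This limits the values of these 3 genes, and of Muc5ac in KPYYF libraries. No relative difference of the 10 genes had an exact permutation p under 0.05. On this scale Muc1 was 0.39 to -1.11 in KPF libraries and -3.81, -0.67 and -0.32 in KPYYF libraries 4449, 4891 and 4938, so that the groups overlapped. Library 4449 lay furthest from the KPF libraries. The part of epithelial content in the falls was not tested.

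**Figure D4:**
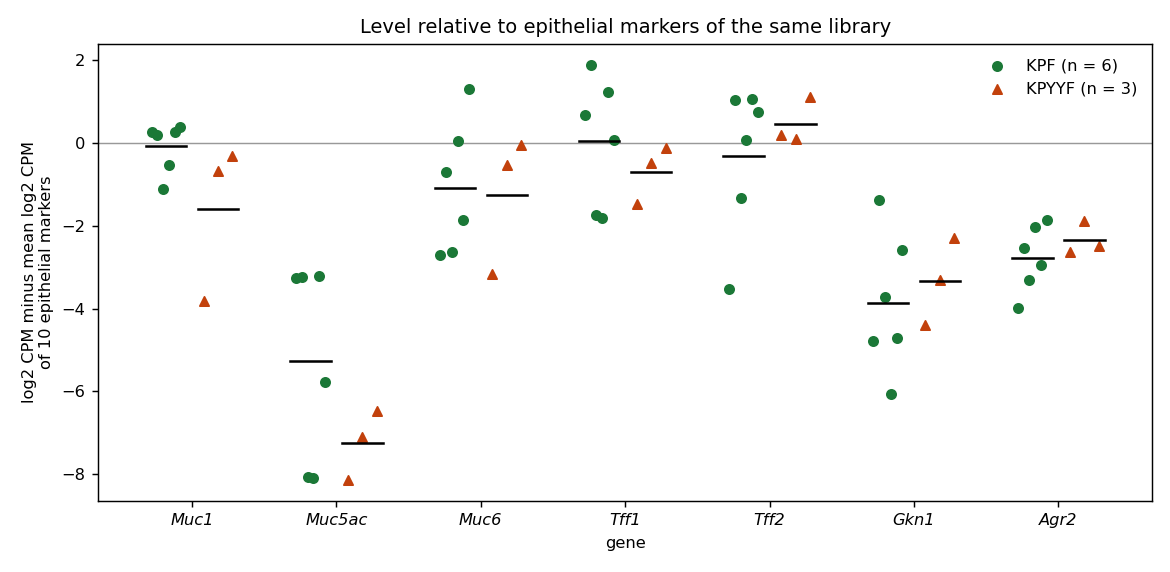
Log2 CPM of 7 genes minus the mean log2 CPM of 10 epithelial markers of the same library, with KPF libraries as circles (n = 6), KPYYF libraries as triangles (n = 3) and group means as bars. For Muc6, Tff1, Tff2, Gkn1 and Agr2 the KPYYF mean lies within 0.78 of the KPF mean, and Muc1 is lowest in KPYYF library 4449.

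Markers of other cell types varied between libraries. The 10 fibroblast markers summed to 417 to 5579 CPM in KPF and 1241 to 3313 CPM in KPYYF libraries, and the 10 immune markers to 7829 CPM in KPF library 4601 and 355 to 1323 CPM elsewhere. Endothelial markers summed to 10.9 to 67.6 CPM in KPF and 12.0 to 15.99 CPM in KPYYF libraries, and islet markers to 2.45 to 73.9 and 2.62 to 20.4 CPM. Library 4601 also had the highest Muc6 level, and the part of immune cells in it was not tested. Xist had over 1000 reads in the KPYYF libraries and in KPF libraries 4435, 4504h and 4504s, and fewer in the other 3. In these 6 libraries, chosen after the data were seen, 6 of the mucin and trefoil set were lower at an unadjusted p under 0.05, against 7.39% of genes, and none passed the adjustment. Within them Muc1 had a log2 fold change of -3.56 (adjusted p = 0.136) and Muc5ac of -6.38 (adjusted p = 0.279).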

How the data were processed

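The members and gene lists were chosen with earlier results of these data known. The authors deposited raw counts of reads per Ensembl gene for 9 libraries made with a Lexogen 3' kit. The submitters' processing notes name STAR, HTSeq and mm10, without versions, and the strand setting is not given in the sources used here. The methods text instead describes BeadChips. Reads marked as not unique made up 43.8% to 48.5% of each KPF file and 49.2% to 53.4% of each KPYYF file. They were left out with the other summary rows, and the part of this difference in the results was not tested. Symbols and positions are from GENCODE M21 on GRCm38. Genes reaching 100 counts in total were tested with edgeR 4.0.16 (TMM, robust quasi-likelihood, no covariate, R 4.3.3) and Benjamini-Hochberg adjustment. Log2 CPM used a prior count of 2. Single values were compared by exact permutation over 84 splits. Alternatives were DESeq2 1.42.0, limma-voom 3.58.1 with sample quality weights, RLE, other filters, the sum of 4504h with 4504s, and the removal of each library. Named were all members, Yap1, genes of the other lists with an adjusted p under 0.05 and the extremes of these lists, and the 3 nearest genes of each tested member. An allele shared by both groups and 1 nearest gene are not reported here. Muc2, Muc3, Muc3a, Muc5b, Muc16, Muc17, Muc21, Gkn2, Gkn3, Anxa10, Vsig1, Pgc, Sult1c2, Atp4b, Galnt1, C1galt1, Spdef, Xist and the antisense genes were named after their values were seen. In a simulation with 13500 genes and 6 against 3 libraries, edgeR recovered 23.7% of 4-fold and 63.9% of 16-fold changes, with 8.7% false calls. Sequences are from RefSeq. Figures were drawn with matplotlib 3.10.9.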

Additional observations from a re-analysis of the deposited data

How the results depend on the processing

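No paired analysis was possible because the labels give the groups no shared replicate numbers. All 149 values of the 9 tested members over the alternatives were below 0, except 2 of Muc13, 0.13 without KPYYF library 4449 and 0.13 without 4938 (Muc13 lay between -0.71 and 0.13 with 1 library left out). The number of members lower at an adjusted p under 0.05 was 1, and 5 with DESeq2 (Muc1, Muc5ac, Muc6, Tff1 and Gkn1), which called 928 genes lower (6.58%) and 269 higher. It was 0 without a filter, with limma-voom with quality weights, without the 2 acinar-rich libraries 4504s and 4449, within the libraries with over 1000 Xist reads, and 0 to 1 with 1 library left out. At an unadjusted p, 6 members were lower, 1 with limma-voom with quality weights, and 2 (without 4891) to 7 (without 4504h) with 1 library left out. Over all genes, 112 were lower and 43 higher. These were 219 and 88 without a filter, 31 and 6 within the Xist libraries, and 1298 and 592 by an unadjusted p with a 2-fold change. limma-voom with quality weights called 44 lower, and summing 4504h and 4504s left 25 higher. With 1 library left out, 13 (without 4938) to 198 (without 4449) genes were lower and 6 (without 4435) to 75 (without 4449) higher. The median of the members was -3.19 to -2.31 with 1 library left out, that of other mucin and trefoil genes -4.52 to -1.74, and of regulators -3.49 to -1.27. Without a filter the other mucin and trefoil median was -5.08, and the regulator median was -3.51 with limma-voom with quality weights and -3.40 without 4504s and 4449. The causes were not tested. Depth limits Muc4, Muc13, Muc20 and Muc5ac in KPYYF libraries, with Muc4 at 1 count in 4891 and 0 in 4938.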
